A study of Rattus norvegicus with 6 samples.

Results

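The integrated stress response is a signalling pathway in which stress kinases slow general translation and switch on a set of transcription factors and repair genes. In hippocampal RNA of Fmr1 KO rats, the messenger RNAs of its 2 central transcription factors, Atf4 and Ddit3, were higher than in WT rats, by 14.4% and 31.2%, at an unadjusted p under 0.05 that neither kept after adjustment over all genes. The downstream genes Asns, Sesn2, Chac1 and Atf5 and the kinase gene Eif2ak3 did not pass the test in either direction. Atf3 and Ppp1r15a varied with single libraries, and Trib3 was at the edge of detection.

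These results concern 10 genes of the integrated stress response, chosen by name as its transcription factors, a kinase and known targets. They are Atf4, Ddit3, Atf3, Atf5, Trib3, Chac1, Asns, Sesn2, Ppp1r15a and Eif2ak3. The choice was made with earlier results of these data known. All 10 were found by symbol among the 17455 genes of the count table, all 10 had at least 1 count, and 9 of them, all but Trib3, had enough counts to be tested, as had 11800 genes in all. The samples were hippocampi of 10-week-old male rats on a Long Evans background, 3 Fmr1 KO rats carrying the LE-Fmr1em2Mcwi allele and 3 WT rats, with 1 RNA library per rat. The study crossed purchased animals to obtain littermates and states that 1 litter per group served transcriptomics, so litter and genotype cannot be told apart if the groups came from different litters. FMRP, the protein lost in KO rats, binds messenger RNAs and represses their translation. The comparison asks whether transcripts of the stress pathway differ in level when FMRP is missing.

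In this pathway, different stresses activate the kinases PERK, GCN2, PKR and HRI, which phosphorylate the translation initiation factor eIF2. Most translation then falls, while a few messenger RNAs with upstream open reading frames, among them those of Atf4, Atf5, Ddit3 and Ppp1r15a, are translated better. ATF4 binds DNA with C/EBP-family partners at so-called C/EBP-ATF response elements and induces amino acid synthesis and transport, aminoacyl-tRNA synthetases, Ddit3, Trib3 and Chac1. Much of this regulation is translational, and RNA-Seq measures transcript levels only. The pathway is studied in the hippocampus because phosphorylated eIF2 and ATF4 restrain long-term memory in rodents.

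The libraries held 9619812 to 13390476 counts in KO rats and 11649652 to 12874085 counts in WT rats. Fmr1, the targeted gene, had 11.6 to 17.4 CPM (counts per 1000000, scaled by TMM) in KO libraries and 47.6 to 51.6 CPM in WT libraries, so the level of the targeted gene went with the label in every library. WT replicate 3 stood apart from the other WT libraries on the first principal component of all tested genes, with a score of 6.20 that falls between those of the KO libraries (5.49 to 11.01) and away from those of WT replicates 1 and 2 (-19.6 and -12.4). Markers of neurons were detected for 10 of 10 genes, as they should be in hippocampus. The 10 oligodendrocyte markers all had negative log2 fold changes, 5 of them past an unadjusted p of 0.05, and their summed level was 10715 to 12244 CPM in KO and 13547 to 14313 CPM in WT libraries. Precursors of oligodendrocytes had 3 of 8 markers lower at that threshold, with sums of 434 to 575 CPM in KO and 535 to 596 CPM in WT libraries. Of 9 astrocyte markers 8 had positive log2 fold changes, with sums of 8613 to 9893 CPM in KO and 7948 to 8973 CPM in WT libraries. Markers of choroid plexus were near the limit of detection, with Otx2 at 0 counts throughout and sums of 5.47 to 10.3 CPM in KO and 11.7 to 15.4 CPM in WT libraries. Sums for neurons, microglia and vascular cells overlapped between the groups. In bulk tissue fewer cells of a type cannot be told apart from less RNA per cell, and the part of these markers in the results given here was not tested.

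Over all genes, edgeR called 3 genes at an adjusted p under 0.05 (0.0254% of those tested), and 0 of the 9 tested members were among them. DESeq2 also called 0 members. Without adjustment, at the p of 0.05 given in the methods of the study (the unadjusted threshold), 2 of the 9 members were higher in KO rats, against 4.19% of all tested genes, and 0 were lower, against 5.15% of all tested genes. In DESeq2 the same 2 members, Atf4 and Ddit3, were higher at that threshold, against 2.55% of the 14474 genes with a p. That base is unlike the one of edgeR, as it includes low-count genes, Trib3 among them, that edgeR did not test. Every KO library lay above every WT library for 2 of the 9 members, against 7.19% of all tested genes. Because the members were chosen with earlier results of these data known, these shares describe the set and do not test it. The median log2 fold change of KO over WT was 0.05 over the 9 members and 0.0017 over all tested genes. With 3 libraries against 3, the smallest exact permutation p for 1 gene is 0.1. The edgeR p-values rest on the spread between these 6 rats, with the variance of each gene drawn towards that of the other tested genes.

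**Figure D1:**
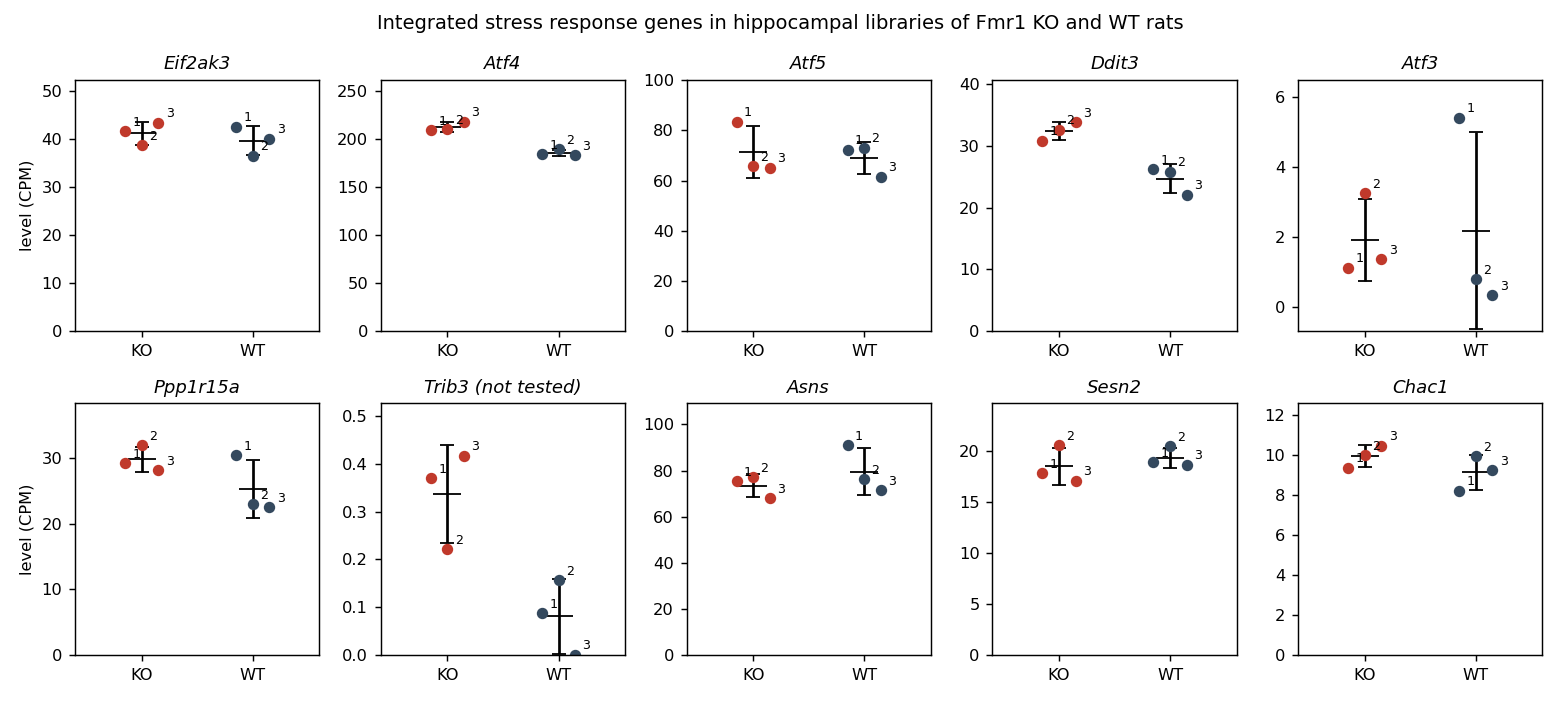
Level of each of the 10 genes in CPM (vertical axis, a separate scale per gene) in the 3 KO (red, left) and 3 WT (dark, right) libraries, numbered by replicate, with the mean and SD as bars. The KO points of Atf4 (209 to 218 CPM) and Ddit3 (30.9 to 33.8 CPM) lie above all WT points, while the high Atf3 points belong to WT replicate 1 and KO replicate 2.

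Eif2ak3 encodes PERK, the kinase that responds to unfolded proteins in the endoplasmic reticulum. It had 41.5, 38.6 and 43.3 CPM in KO replicates 1, 2 and 3, against 42.5, 36.4 and 40.0 CPM in WT replicates 1, 2 and 3. The groups overlapped throughout, with a log2 fold change of 0.05 (edgeR SE 0.09, adjusted p = 0.885) and a 95% interval of the fold of 0.911 to 1.18.

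Atf4, the transcription factor on which the kinases converge, was the most deeply counted member, with 2089 to 2847 counts in KO and 2113 to 2427 counts in WT libraries. Its level was 209, 210 and 218 CPM in KO replicates 1, 2 and 3, against 184, 189 and 183 CPM in WT replicates 1, 2 and 3. All KO libraries lay above all WT libraries, and the gap between the lowest KO and the highest WT library exceeded the range within either group. The means were 212 ± 4.98 CPM in KO and 186 ± 3.21 CPM in WT rats (SD, n = 3 each). The log2 fold change was 0.19 (SE 0.06), with a 95% interval of 0.07 to 0.32, an unadjusted p of 0.0043 and an adjusted p of 0.334 from edgeR. Atf4 ranked 152 by p among the 11800 genes tested. The unadjusted p stayed under 0.05 in each of the 10 other fits, from 0.0034 in DESeq2 to 0.0166 without KO replicate 3, and the adjusted p from 0.115 to 0.822.

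Ddit3 encodes CHOP, a C/EBP-family factor induced by ATF4 that promotes cell death under prolonged stress. It had 333, 442 and 324 counts in KO replicates 1, 2 and 3, which is 30.9, 32.6 and 33.8 CPM, against 301, 331 and 268 counts, or 26.2, 25.8 and 22.1 CPM, in WT replicates 1, 2 and 3. Here too each KO library was above each WT library, and WT replicate 3 was the lowest of the 6. The means were 32.4 ± 1.50 CPM in KO and 24.7 ± 2.30 CPM in WT rats (SD, n = 3 each). The log2 fold change was 0.39 (SE 0.10), with a 95% interval of 0.18 to 0.60, an unadjusted p of 0.0013 and an adjusted p of 0.259 from edgeR. Among the 5957 tested genes with a positive log2 fold change, Ddit3 had the 13th smallest p. Across the 10 other fits its unadjusted p ran from 8.0e-04 to 0.0072 and its adjusted p from 0.106 to 0.679.

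In the RefSeq annotation of GRCr8, the span of Ddit3 overlaps that of Mars1, the methionyl-tRNA synthetase gene, and the strand setting of the counting is not given in the sources used here. Mars1 had 129, 128 and 129 CPM in KO replicates 1, 2 and 3, against 121, 121 and 124 CPM in WT replicates 1, 2 and 3. Its log2 fold change was 0.08 (edgeR SE 0.06, adjusted p = 0.722), smaller than that of Ddit3. The part of reads shared between the 2 genes in the value of Ddit3 was not tested.

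Atf5 encodes a factor related to ATF4 that takes part in the mitochondrial stress response and, in the developing rodent brain, in the control of neural progenitors. Its levels were 83.5, 65.7 and 65.2 CPM in KO replicates 1, 2 and 3, against 72.3, 73.0 and 61.6 CPM in WT replicates 1, 2 and 3. KO replicate 1 was the highest library, and the other KO libraries lay within the WT range. KO over WT gave a log2 fold change of 0.05 (edgeR SE 0.10, adjusted p = 0.911), with a 95% interval of the fold of 0.888 to 1.21. It was -0.08 without KO replicate 1. The span of Atf5 overlaps that of the nucleoporin gene Nup62 in GRCr8, whose log2 fold change was -0.02 (SE 0.09).

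Atf3, an early-induced factor that ATF4 activates and that also belongs to the immediate early genes, was low and uneven. It had 12, 44 and 13 counts in KO replicates 1, 2 and 3, against 62, 10 and 4 counts in WT replicates 1, 2 and 3. In CPM, KO replicates 1, 2 and 3 had 1.11, 3.25 and 1.36, against 5.41, 0.78 and 0.33 for WT replicates 1, 2 and 3. The high libraries, WT replicate 1 and KO replicate 2, thus belonged to different groups, and the spread within the WT group was wider than the distance between the group means. The log2 fold change was -0.10 (edgeR SE 1.08, adjusted p = 0.987), with a 95% interval of -2.88 to 2.67. Without WT replicate 1 it was 1.80 (unadjusted p = 0.0079, adjusted p = 0.494 from edgeR), and it was also positive without KO replicate 1 (0.16) or KO replicate 3 (0.08).

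**Figure D2:**
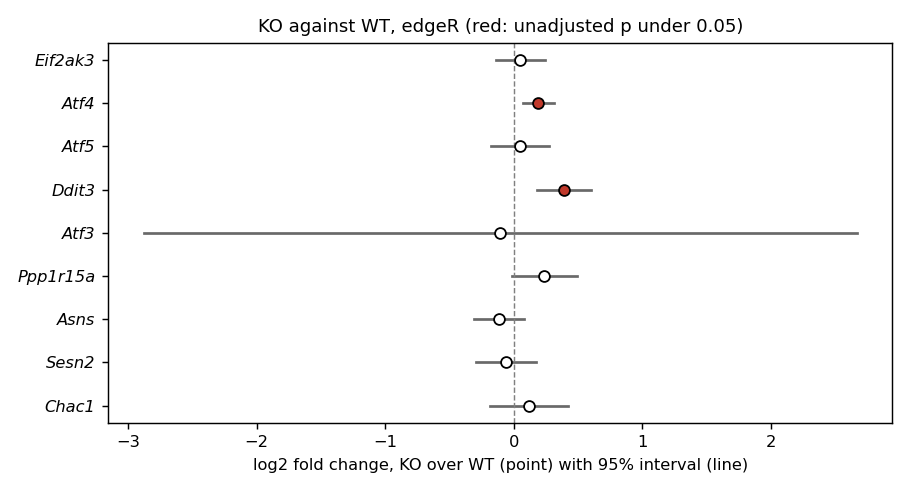
Log2 fold change of KO over WT (points) with its 95% interval from edgeR (lines) for the 9 tested genes, red where the unadjusted p was under 0.05. The intervals of Atf4 (0.07 to 0.32) and Ddit3 (0.18 to 0.60) exclude 0, and that of Atf3 spans -2.88 to 2.67.

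Ppp1r15a encodes GADD34, the inducible subunit that brings protein phosphatase 1 to eIF2 and ends the response. It had 29.3, 31.96 and 28.2 CPM in KO replicates 1, 2 and 3, against 30.4, 23.02 and 22.6 CPM in WT replicates 1, 2 and 3. Only WT replicate 1 reached the KO range. The means were 29.8 ± 1.94 CPM in KO and 25.3 ± 4.42 CPM in WT rats (SD, n = 3 each). The log2 fold change was 0.24 (SE 0.12), with an unadjusted p of 0.062, an adjusted p of 0.549 from edgeR and a 95% interval of the fold of 0.991 to 1.41. Without WT replicate 1 the log2 fold change was 0.39, with an unadjusted p of 0.0026 and an adjusted p of 0.433, and every remaining KO library lay above every WT library. Without KO replicate 2 it was 0.18, with an unadjusted p of 0.213. With no filter on low counts the unadjusted p was 0.0478, which made Ppp1r15a the third member past the unadjusted threshold. Across all 10 other fits the adjusted p ran from 0.433 to 0.899.

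The immediate early genes, which neurons transcribe soon after activity, were examined beside these genes. Their summed level over 23 genes was 1223, 1226 and 1101 CPM in KO replicates 1, 2 and 3, against 1345, 1086 and 895 CPM in WT replicates 1, 2 and 3. WT replicate 1 was thus the highest library for the immediate early genes and for Atf3, and second to KO replicate 2 for Ppp1r15a. Of the 23 genes, 0 were higher and 1, Egr4, was lower in KO rats at the unadjusted threshold, with a log2 fold change of -0.41 (edgeR SE 0.12, adjusted p = 0.334, or 0.0128 without WT replicate 3). Npas4 and Dusp1, next by p, had log2 fold changes of 0.83 (SE 0.40) and 0.64 (SE 0.34) and groups that overlapped. Without WT replicate 1 both were higher in KO rats at the unadjusted threshold, with log2 fold changes of 1.26 for Npas4 (unadjusted p = 0.0032, adjusted p = 0.462 from edgeR) and 1.01 for Dusp1 (unadjusted p = 0.0011, adjusted p = 0.294 from edgeR). The part of neuronal activity in the values of Atf3 and Ppp1r15a was not tested.

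**Figure D3:**
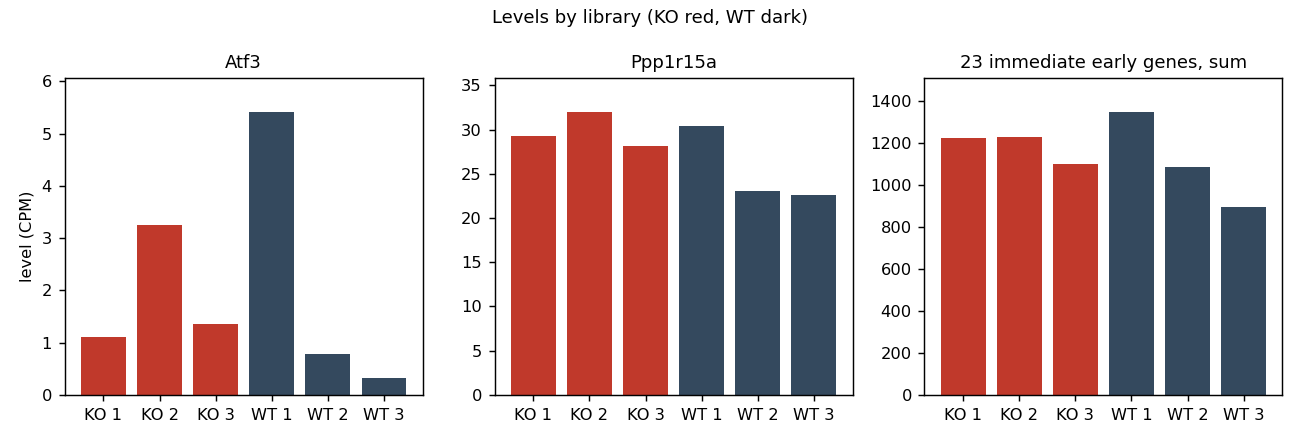
Level in CPM of Atf3, of Ppp1r15a and of the sum of 23 immediate early genes (bars, from 0) in each library, KO in red at the left and WT in dark at the right. WT replicate 1 is the highest WT library in all 3 panels, with 5.41 CPM for Atf3, 30.4 CPM for Ppp1r15a and 1345 CPM for the sum.

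Trib3 encodes a pseudokinase that CHOP and ATF4 induce and that in turn restrains them. It had 4, 3 and 4 counts in KO replicates 1, 2 and 3, against 1, 2 and 0 counts in WT replicates 1, 2 and 3, too few to be tested in edgeR. The KO libraries summed to 11 counts and the WT libraries to 3, a ratio of 3.94 per effective library size. Its exact 95% interval of 1.04 to 21.98 covers counting error only, not the spread between rats. Trib3 was at the limit of detection at this depth, and DESeq2 gave an unadjusted p of 0.151.

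Among the metabolic targets, Asns, the asparagine synthetase gene that carries the classical amino acid response element, had 75.4, 77.1 and 68.0 CPM in KO replicates 1, 2 and 3, against 90.9, 76.2 and 71.4 CPM in WT replicates 1, 2 and 3. WT replicate 1 was the highest and KO replicate 3 the lowest library, and the others interleaved. KO over WT gave a log2 fold change of -0.11 (edgeR SE 0.09, adjusted p = 0.741). The 95% interval of the fold was 0.809 to 1.06. Without WT replicate 1 the log2 fold change was -0.0036.

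Sesn2 encodes a leucine sensor that inhibits mTORC1. It had 17.9, 20.6 and 17.1 CPM in KO replicates 1, 2 and 3, against 18.9, 20.5 and 18.7 CPM in WT replicates 1, 2 and 3. The ranges overlapped, and the log2 fold change was -0.06 (edgeR SE 0.11, adjusted p = 0.900), with a 95% interval of the fold of 0.815 to 1.13.

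Chac1 encodes an enzyme that degrades glutathione. With 94 to 135 counts per library, its levels were 9.36, 9.96 and 10.4 CPM in KO replicates 1, 2 and 3, against 8.20, 9.91 and 9.23 CPM in WT replicates 1, 2 and 3. KO replicates 2 and 3 lay above the WT libraries, the first of them narrowly, and KO replicate 1 lay within the WT range. KO over WT gave a log2 fold change of 0.12 (edgeR SE 0.14, adjusted p = 0.839), with a 95% interval of the fold of 0.879 to 1.34.

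Taking the libraries one by one, KO replicate 3 had the highest level for 4 of the 9 tested members and the lowest for 2, and WT replicate 3 had the lowest for 5. All 10 members together took 0.0484% to 0.04999% of the counts in KO libraries and 0.0432% to 0.0472% in WT libraries. Atf4 was the largest part of this sum. WT replicate 3 lay with the WT libraries for Atf4 and Ddit3, although its first component score was within the KO range.

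ATF4 with its partners recognises the element TGATGNAAN, and the related cyclic AMP response element is TGACGTCA. In RefSeq promoter windows of GRCr8, which run from 250 bases before a start site to 50 after it and were present for 9 of the 10 members, TGATGNAAN was found on either strand in 2, Trib3 and Chac1, and TGACGTCA in 1, Ppp1r15a. The windows of the other members that had one, Asns and Ddit3 among them, held neither. Elements outside these windows or with other letters were not searched for, so this does not show that these genes lack one. Of all 33469 windows, counted by window rather than by gene, 3.97% held TGATGNAAN and 1.83% held TGACGTCA. The matches are shown because ATF4 and its relatives are known to bind such elements, with the element in capitals.
Trib3, GRCr8 chr3:161275537-161275565, plus strand, 22 bases before the start site: cccgcccggcTGATGTAAAcctgagctaa
Chac1, GRCr8 chr3:126795953-126795981, minus strand, 168 bases before the start site: ctagcaggagTGATGCAACggcggagaag
Ppp1r15a, GRCr8 chr1:105139644-105139673, minus strand, 66 bases before the start site: cgcctctccggTGACGTCAgcatagcgctg

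A match is a description of the letters and not of binding. Of 195 tested genes whose window held TGATGNAAN, 10 were higher (5.13%) and 7 lower (3.59%) in KO rats at the unadjusted threshold, with a median log2 fold change of 0.0032. Of 300 tested genes with TGACGTCA, 19 were higher (6.33%) and 13 lower (4.33%), with a median of -0.0076. Over all 11800 tested genes 4.19% were higher and 5.15% lower, but only 9355 of them had a window. The shares over those 9355 genes alone were not computed, and the differences between shares were not tested.

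The other genes of the pathway were described by lists that cover 136 distinct genes, of which 129 were tested. At the unadjusted threshold, 7 of them were higher (5.43%) and 4 lower (3.10%) in KO rats, against 4.19% and 5.15% of all tested genes, and 0 passed an adjusted p of 0.05 in edgeR or in DESeq2. Positive log2 fold changes were found for 82 of the 129 (63.6%), against 50.5% of all tested genes, and their median was 0.03. The lists too were chosen with earlier results of these data known, so these shares are description only. Without WT replicate 3 the counts were 11 higher and 7 lower, and Iars1, Slc38a2 and Cebpb passed an adjusted p of 0.05 (0.0415, 0.0218 and 0.0143 from edgeR) in a fit that called 256 genes in all. Without WT replicate 1 only 3 were higher. Of the genes named from these lists, Iars1, Slc7a1 and Slc38a2 stayed past the unadjusted threshold in 10 of the 10 other fits. Impact did so in 9, Ndrg1 and Creb3l1 in 7, Creb1 in 5, Cth and Cebpb in 4 and Dnajc10 in 3. These genes were named for the smallest p of their lists, and the other fits use the same libraries. The counts of fits therefore describe stability and are no separate test.

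**Figure D4:**
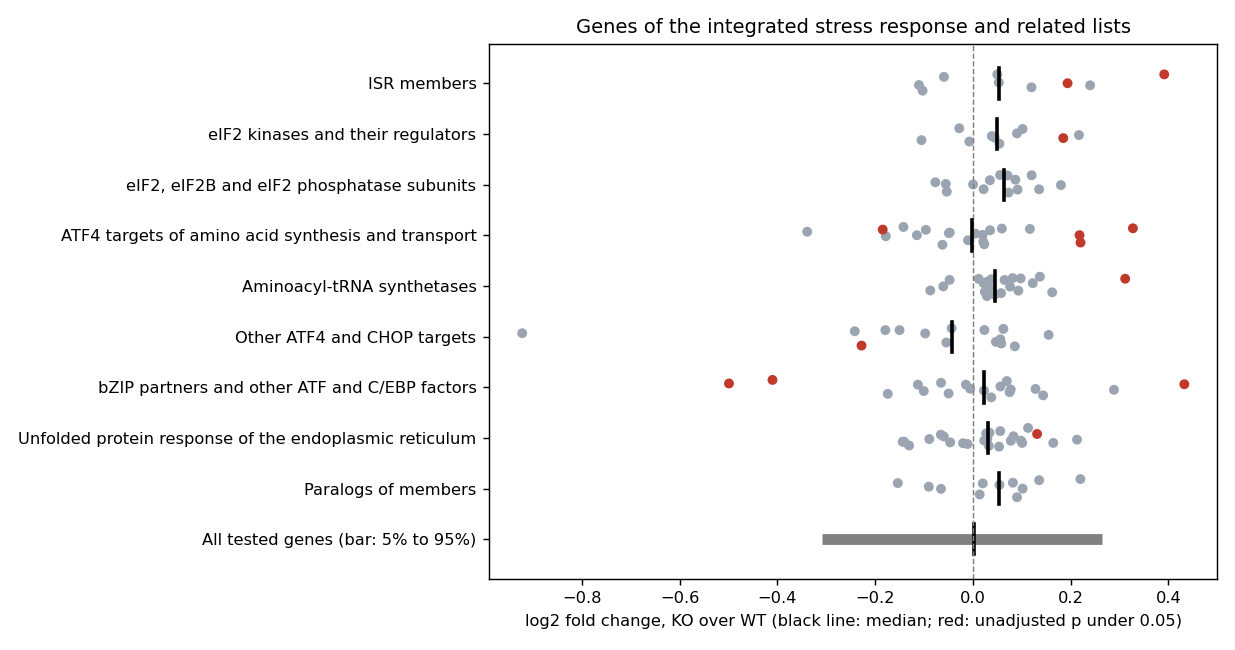
Log2 fold change of KO over WT for each tested gene (points, red where the unadjusted p was under 0.05) of the 9 tested members and 8 related lists, with the median of each list as a black line. The grey bar gives the 5% to 95% range over all tested genes, -0.31 to 0.26, within which most points lie.

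Upstream of Atf4, among 10 kinases and kinase regulators, 1 was higher and 0 lower at the unadjusted threshold. This was Impact, which inhibits the activation of GCN2 and is abundant in neurons, with 530, 516 and 555 CPM in KO replicates 1, 2 and 3, against 437, 475 and 496 CPM in WT replicates 1, 2 and 3. The groups did not overlap, and the log2 fold change was 0.19 (edgeR SE 0.06, adjusted p = 0.387). Without WT replicate 1 its unadjusted p was 0.0605. The kinase genes Eif2ak1 (HRI), Eif2ak2 (PKR) and Eif2ak4 (GCN2) had log2 fold changes of 0.05, 0.10 and 0.09 (SE 0.08, 0.09 and 0.10). Fkbp1a, the prolyl isomerase FKBP12, had -0.11 (SE 0.06). Its groups did not overlap either, with 915, 891 and 906 CPM in KO replicates 1, 2 and 3. WT replicates 1, 2 and 3 had 1028, 970 and 920 CPM. Of 14 subunits of eIF2, its exchange factor eIF2B and its phosphatases, 0 were higher or lower at that threshold in edgeR with all 6 libraries. In each of 4 other fits 1 gene was higher, Ppp1cb in DESeq2 (unadjusted p = 0.0496) and without KO replicate 2 (0.0446), Eif2b1 without KO replicate 1 (0.0134) and Ppp1r15b without KO replicate 3 (0.0228). The smallest p values belonged to the phosphatase catalytic subunit Ppp1cb, to Ppp1r15b, the constitutive relative of GADD34, and to Eif2b1. Their log2 fold changes were 0.12 (SE 0.06), 0.14 (SE 0.08) and 0.18 (SE 0.12).

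Downstream, of 20 tested ATF4 targets of amino acid synthesis and transport, 3 were higher and 1 was lower at the unadjusted threshold, and the median log2 fold change was -0.0025. Slc7a1, the transporter of arginine and lysine, had 89.5, 94.4 and 90.2 CPM in KO replicates 1, 2 and 3, against 74.7, 79.7 and 81.2 CPM in WT replicates 1, 2 and 3, a log2 fold change of 0.22 (edgeR SE 0.07, adjusted p = 0.341). Slc38a2, a transporter of small neutral amino acids, had 182, 186 and 185 CPM in KO replicates 1, 2 and 3, against 145, 153 and 176 CPM in WT replicates 1, 2 and 3, a log2 fold change of 0.22 (edgeR SE 0.07, adjusted p = 0.365). Cth, which makes cysteine from cystathionine, had 10.9, 10.9 and 11.1 CPM in KO replicates 1, 2 and 3, against 8.89, 7.88 and 9.47 CPM in WT replicates 1, 2 and 3, a log2 fold change of 0.33 (edgeR SE 0.14, adjusted p = 0.483). None of these 3 overlapped between groups, where 7.19% of all tested genes had every KO library above every WT library. They were named for the smallest p of the list, so their separation is not a further result. In DESeq2 the unadjusted p of Cth was 0.0902. The lower gene was the glycine transporter Slc6a9 (log2 fold change -0.18, SE 0.08), named here after its value was seen. The list had 0 lower genes in the fits without KO replicate 1, KO replicate 3, WT replicate 2 or WT replicate 3, and 2 without WT replicate 1.

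Aminoacyl-tRNA synthetases, which charge tRNAs with amino acids, were listed together with the tRNA exporter Xpot, and 18 of these 21 genes had a positive log2 fold change, with a median of 0.04. Their summed level was 2305, 2320.5 and 2312 CPM in KO replicates 1, 2 and 3, against 2245, 2223 and 2189 CPM in WT replicates 1, 2 and 3, so the sums did not overlap. At the unadjusted threshold, 1 gene was higher and 0 lower, and for 5 of the 21 every KO library lay above every WT library, against 7.19% of all tested genes. The higher gene was Iars1, the isoleucyl-tRNA synthetase, with 75.2, 72.0 and 72.2 CPM in KO replicates 1, 2 and 3, against 57.4, 60.3 and 59.0 CPM in WT replicates 1, 2 and 3. Its log2 fold change was 0.31 (edgeR SE 0.07, adjusted p = 0.219), and its unadjusted p was 4.5e-04. Cars and Kars, the cysteinyl- and lysyl-tRNA synthetases, had 0.16 (SE 0.08) and 0.14 (SE 0.08), with overlapping groups.

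Among other targets of ATF4 and CHOP, 4 of 19 genes, Nupr1, Fgf21, Gdf15 and Tnfrsf10b, had too few counts to be tested, and Nupr1 had 0 counts in all 6 libraries. Of the 15 tested, 0 were higher and 1 was lower at the unadjusted threshold, Ndrg1, a stress gene that oligodendrocytes also express, with a log2 fold change of -0.23 (edgeR SE 0.09, adjusted p = 0.453). The part of the lower oligodendrocyte markers in this value was not tested. Ddit4, an inhibitor of mTORC1, had 127, 152 and 130 CPM in KO replicates 1, 2 and 3, against 119, 123 and 126 CPM in WT replicates 1, 2 and 3, with groups that did not overlap by a narrow margin and a log2 fold change of 0.15 (edgeR SE 0.07, adjusted p = 0.546). The secreted glycoprotein gene Stc2, at 0.73 to 1.39 CPM in KO and 0.82 to 3.12 CPM in WT libraries, had -0.92 (SE 0.46).

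Of 19 tested bZIP partners and other ATF and C/EBP factors, 1 was higher and 2 were lower at the unadjusted threshold. The summed level of this list was 1106 to 1116 CPM in KO and 1096 to 1104 CPM in WT libraries. These sums did not overlap, but by a narrow margin. Of the 19 genes, 10 had positive and 9 negative log2 fold changes. For 0 of them every KO library lay above every WT library, against 7.19% of all tested genes, and for 1 every KO library lay below. Unlike for the synthetases, most genes of the list thus did not share a direction. Cebpb, a dimer partner of ATF4 and CHOP, had 21.1, 24.3 and 21.8 CPM in KO replicates 1, 2 and 3, against 31.4, 41.7 and 22.1 CPM in WT replicates 1, 2 and 3. WT replicate 3 lay within the KO range, and the log2 fold change was -0.50 (edgeR SE 0.21, adjusted p = 0.521), or -0.70 without WT replicate 3. The unadjusted p of Cebpb was 0.0595 to 0.121 in the fits without any other single library and 0.0744 with no filter. It was 0.0054 in DESeq2 (adjusted p = 0.310) and 0.0048 in edgeR with the replicate block (adjusted p = 0.303). Creb3l1, a transcription factor of the endoplasmic reticulum, had -0.41 (SE 0.16), and Creb1, the cyclic AMP-responsive activator, 0.43 (SE 0.18), at 5.23 to 8.78 CPM over the 6 libraries.

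In the unfolded protein response of the endoplasmic reticulum, which acts through PERK, IRE1 and ATF6, 1 of 24 tested genes was higher and 0 lower at the unadjusted threshold. This was the disulfide reductase Dnajc10, with 199, 196 and 198 CPM in KO replicates 1, 2 and 3, against 178, 174 and 189 CPM in WT replicates 1, 2 and 3, a log2 fold change of 0.13 (edgeR SE 0.06, adjusted p = 0.522). The disulfide isomerase Pdia4 and the translocon subunit Sec61b had log2 fold changes of 0.21 (SE 0.11) and -0.14 (SE 0.10), with overlapping groups. The summed level of the list was 4516 to 5125 CPM in KO and 4615 to 4782 CPM in WT libraries.

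Paralogs of the members were tested as well, and with all 6 libraries 0 of 11 genes were higher or lower at the unadjusted threshold. Without KO replicate 3 Ppp1r15b was higher (unadjusted p = 0.0228), and without WT replicate 3 Trib2 was lower (unadjusted p = 0.0151). Besides the kinases and Ppp1r15b, the log2 fold changes were 0.22 for Trib1 and -0.15 for Trib2, the relatives of Trib3, and 0.08 for Chac2, the constitutive relative of Chac1. They were 0.02 for Sesn1 and -0.09 for Sesn3, the other sestrins, -0.07 for Jdp2, a bZIP repressor related to Atf3, and 0.01 for Asnsd1. No paralog had groups that did not overlap.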

How the data were processed

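Total RNA of 6 hippocampi (3 KO, 3 WT) was sequenced by the authors as 100 bp single-end reads from a directional kit, aligned to rn6 with HISAT2 and counted with HTSeq under "intersection non-empty". The authors deposited whole-number counts per gene without normalization; versions, annotation and strand setting are not given in the sources used here. A table of the authors' own DESeq2 comparison (mean level, fold changes, statistics and p-values) was not used. Columns were assigned by label, and 0 were left over.

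Counts were filtered with filterByExpr (minimum count 10), scaled by TMM and tested in R 4.3.3 with the quasi-likelihood test of edgeR 4.0.16, with genotype as the only term, after a check on simulated counts. P-values, two-sided, were adjusted by Benjamini-Hochberg over 11800 genes. Intervals (95%) come from the fitted coefficient and its SE, taken as its size over the root of F. Alternatives were DESeq2 1.42.0, RLE factors, no filter, the replicate number as a block and leaving out each library. Members and lists were chosen with earlier results of these data known. Named genes were the members, their paralogs, Fmr1 and up to 3 genes per list with the smallest p. Mars1 and Nup62 were added for overlap with members, and Slc6a9 and Aldh18a1 for their values. Gene levels were not compared between genes for lack of transcript lengths. Derl2 was not analysed here.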

Additional observations from a re-analysis of the deposited data

How the results depend on the processing

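Over the 10 alternative fits (DESeq2, RLE factors, no filter, replicate block, and each library left out), Atf4, Ddit3, Ppp1r15a and Chac1 kept positive and Asns and Sesn2 negative log2 fold changes, and 0 members passed an adjusted p of 0.05 in any. Leaving out 1 library gave 2 to 4 members higher at an unadjusted p under 0.05, 2 to 4 members with every KO library above every WT library and 0 to 1 with every KO library below. It gave 3 to 11 higher and 1 to 7 lower pathway genes with 0 to 3 at an adjusted p under 0.05, and over all genes 1 to 256 at an adjusted p under 0.05, 324 to 1033 higher and 377 to 1062 lower at the unadjusted threshold. The 4 members came without WT replicate 1 and the 1 below without KO replicate 2. The highest pathway and whole-table counts came without WT replicate 3. The cause was not tested. Groups separate more readily with fewer libraries, and the share of all tested genes without overlap was not computed for these fits. The count of 3 genes called over all genes was 9 with no filter, 17 with the replicate block and 37 in DESeq2.

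The direction of Atf3 reversed with the replicate block (0.17) and without KO replicate 1 (0.16), KO replicate 3 (0.075) or WT replicate 1 (1.80), and leaving out 1 library gave -0.79 to 1.80. Leaving out 1 library gave -0.077 (without KO replicate 1) to 0.11 for Atf5, also negative without WT replicate 3 (-0.026), and -0.0031 (without WT replicate 2) to 0.11 for Eif2ak3. Among paralogs it gave -0.032 (without KO replicate 3) to 0.044 for Asnsd1, -0.18 to 0.026 (without WT replicate 2) for Jdp2, -0.18 to 0.092 (without WT replicate 3) for Sesn3 and -0.012 (without WT replicate 3) to 0.098 for Eif2ak1. Of these genes, only Atf3 without WT replicate 1 passed the unadjusted threshold in a fit where its direction differed.

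Over all genes there was little sign that the replicate numbers pair the samples. Deviations from the group means correlated across genes at 0.03, -0.0088 and -0.08 for numbers 1, 2 and 3. Pairing in a subset of genes was not tested. With the block, Atf4 had an unadjusted p of 0.0094, Ddit3 of 0.0022 and Ppp1r15a of 0.049, so 3 members were higher. Among the immediate early genes, Npas4 (unadjusted p = 5.5e-04, adjusted p = 0.122 from edgeR) and Dusp1 (1.5e-05 and 0.0198) were higher with the block. With no filter 3 members were higher as well. Depth limits Trib3, which had 0 to 4 counts per library.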
